A study of Mus musculus with 12 samples.

Results

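The 8 genes described here encode liver proteins that sense or convert steroid hormones, together with a receptor of the prolactin pathway. They are the estrogen receptor Esr1, the glucocorticoid receptor Nr3c1, the prolactin receptor Prlr, the steroid reductase Srd5a1 and the hydroxysteroid dehydrogenases Hsd3b5, Hsd17b2, Hsd17b6 and Hsd11b1. They were chosen by name, with earlier results of these data known, as were the lists of related genes below. Shares of members or listed genes set beside those of all genes are therefore descriptions only. All 8 were among the 11968 genes tested. Livers were taken from female and male C57BL/6J mice, an inbred strain with no introduced allele, which were 8 to 10 weeks old when the diets began. For 4 weeks they ate chow or chow with simvastatin, an inhibitor of cholesterol synthesis. The labels give the dose as 0.1 g per kg body weight and the paper's methods as 0.1 g per kg of food. Each of the 4 groups held 3 livers, 12 in all, and no group carried a genetic change. RNA was read by poly(A) sequencing of whole liver, so fewer cells of a type and less RNA per cell cannot be told apart in any value below.

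Nuclear steroid receptors such as the estrogen and glucocorticoid receptors bind a hormone that enters the cell and then act on gene promoters, whereas the prolactin receptor sits in the cell membrane and signals through JAK2 and STAT5. The dehydrogenases and reductases set how much active hormone reaches these receptors, since they convert weak into strong steroids or strong into weak. In rodent liver many such genes differ between the sexes, and the sex pattern of growth hormone release is known to shape this.

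The livers held between 46066381 and 60419223 counts each. The paper's methods state an average read depth below this range, and the reason for the difference was not tested. Levels are given as CPM, counts scaled to library size with TMM, a trimmed mean of log ratios between libraries. Markers listed for liver cell types matched the labelled tissue. The 5 hepatocyte markers summed to between 72300 and 153000 CPM in a liver, and the 5 pancreatic acinar markers to at most 2.04 CPM. Among livers of the same group, a single axis held 57.9% of the variance over the 7639 genes at 10 CPM or more, and its gene weights rose with exon length (Spearman's rho 0.452, a description across genes). Replicates 1 and 2 of female statin, at -0.467 and 0.486, and replicate 1 of male statin, at 0.488, lay furthest out on it.

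Promoter sequences are shown for the 4 genes that differed between the sexes on statin, with any match to the STAT5 motif in capitals. They come from the RefSeq table for GRCm38.p6, which held 10 transcription starts for 6 of the 8 genes, and each run gives the 250 bases before the start, on the strand of the gene. The gene counts do not show which start was used. The first bases after the Hsd3b5, Srd5a1 and Prlr starts shown were not found in a GENCODE transcript of the gene. The Hsd3b5 window, from 98645535, lies well upstream of the GENCODE gene, whose upstream end is at 98630252. It may therefore not be the promoter of the gene as counted. For Prlr and Esr1 the second start is shown because it holds the motif, whereas the other 2 starts of Prlr and the other start of Esr1 had 0 matches.
Hsd3b5, chr3:98645535-98645784, minus strand: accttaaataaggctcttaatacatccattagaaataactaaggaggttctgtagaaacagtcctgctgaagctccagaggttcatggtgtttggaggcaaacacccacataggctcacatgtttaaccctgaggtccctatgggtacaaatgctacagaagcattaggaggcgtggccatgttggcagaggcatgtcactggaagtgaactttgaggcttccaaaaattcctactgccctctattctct
Srd5a1, chr13:69611464-69611713, minus strand: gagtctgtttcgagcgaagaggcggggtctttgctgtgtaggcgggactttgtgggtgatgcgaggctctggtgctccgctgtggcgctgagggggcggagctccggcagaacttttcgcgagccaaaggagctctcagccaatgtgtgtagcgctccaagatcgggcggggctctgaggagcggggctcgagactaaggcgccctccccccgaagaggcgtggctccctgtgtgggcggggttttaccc
Prlr, second start, chr15:10223656-10223905, plus strand: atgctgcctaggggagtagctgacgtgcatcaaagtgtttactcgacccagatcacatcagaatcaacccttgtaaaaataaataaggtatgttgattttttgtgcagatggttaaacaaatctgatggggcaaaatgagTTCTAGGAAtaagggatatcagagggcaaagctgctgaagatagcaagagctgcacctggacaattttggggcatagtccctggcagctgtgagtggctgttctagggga
Esr1, second start, chr10:4709908-4710157, plus strand: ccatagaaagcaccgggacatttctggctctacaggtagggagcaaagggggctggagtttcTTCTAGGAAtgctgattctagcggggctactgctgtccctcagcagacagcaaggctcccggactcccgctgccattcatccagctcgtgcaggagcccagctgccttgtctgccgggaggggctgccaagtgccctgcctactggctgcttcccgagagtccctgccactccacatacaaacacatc
The motif TTCNNNGAA, which STAT5 can bind and which reads the same on both strands, occurred once in the Prlr promoter, 110 bases before the start, and once in the Esr1 promoter, 188 bases before it. It was found at 2 of the 10 starts of the members and in 7.02% of all 32851 promoters of that length. The core ACANNNTGT of the glucocorticoid response element (5.84% of promoters), its full form (0.00913%), the full palindromic estrogen response element (0.0639%) and the sterol response element TCACNCCAC (1.05%) were searched on both strands as well, and these letters were not in the windows of the members.

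**Figure D1:**
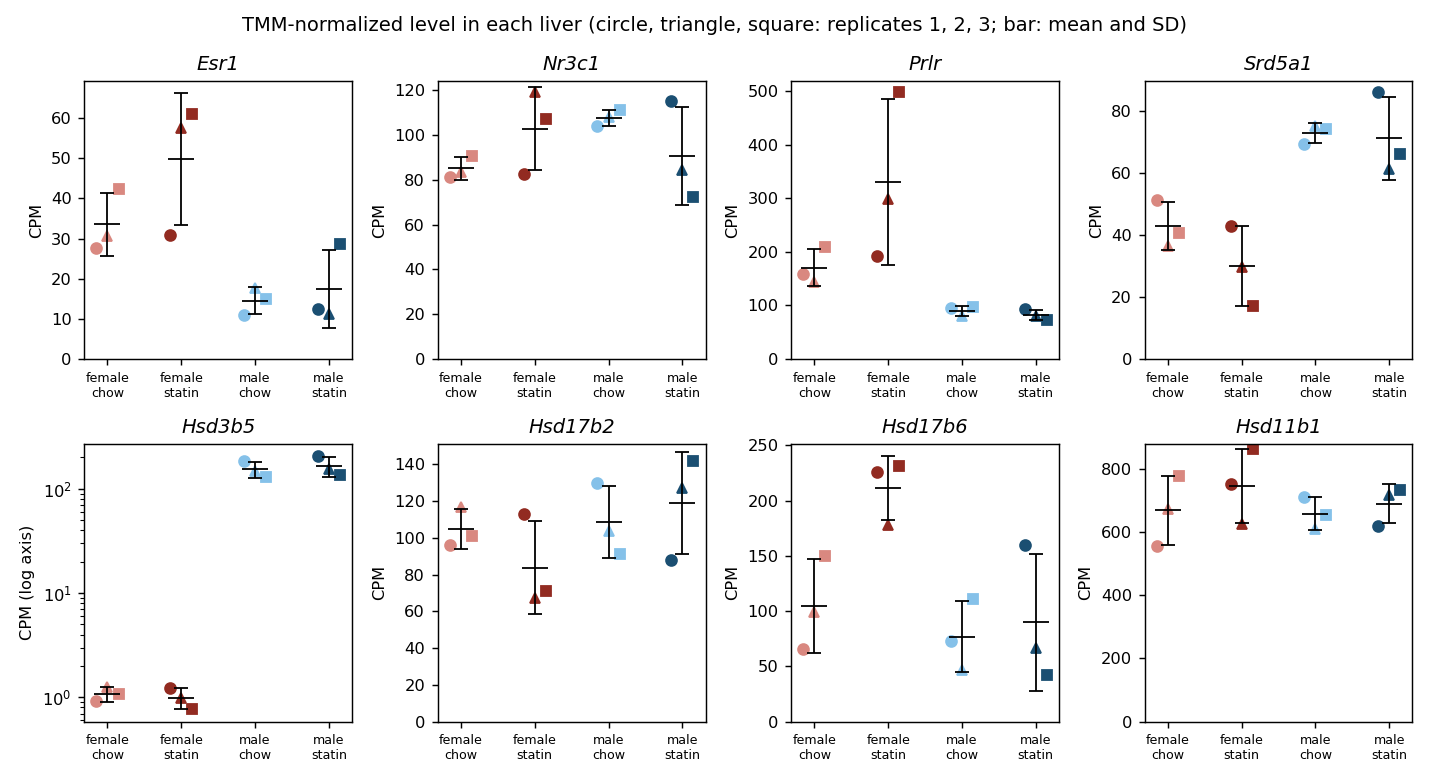
Level of each of the 8 genes in the 12 livers, in TMM-normalized CPM, with the mean and SD of the 3 livers in each group; Hsd3b5 is on a log axis. Hsd3b5 lies near 1 CPM in all 6 female livers and between 130 and 205 CPM in all 6 male livers, whereas Hsd11b1 overlaps in all 4 groups.

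With statin, 0 of the 8 members had an adjusted p-value under 0.05 in females or in males (edgeR's quasi-likelihood test with Benjamini-Hochberg adjustment over all 11968 genes). The prolactin receptor and Hsd17b6 had the largest fitted increases in females, near 2-fold, and Srd5a1 the largest fitted decrease. Over all genes 0.1% were called in females and 0% in males. Before adjustment, 2 of the 8 genes in females had a p-value under 0.05, against 10.5% of all genes, and 0 of 8 in males, against 1.96%. For the difference between the sexes in the response, 0 of 8 members and 0% of all genes passed, with 1 member and 8.01% of all genes under the unadjusted threshold. DESeq2 called 1 member in females (Prlr), against 2.26% of all genes, 0 in males, against 0.0334%, and 0 for that difference, against 1.09%.

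Prlr, which encodes the membrane receptor for prolactin, was at 158, 144 and 210 CPM in female chow and at 193, 299 and 498 CPM in female statin. The groups overlapped, because the lowest statin liver lay below the highest chow liver, and replicate 3 of statin stood above the rest. The fitted log2 fold change was 0.95 (SE, the standard error, 0.28, 95% interval 0.35 to 1.55, adjusted p = 0.219 by edgeR). In male chow the levels were 94.7, 79.6 and 96.7 CPM and in male statin 92.8, 81.3 and 72.6 CPM, a log2 fold change of -0.14 (interval -0.73 to 0.46, adjusted p = 1 by edgeR). Every male liver lay below every female liver. The responses of the sexes differed by 1.08 on the log2 scale (interval 0.24 to 1.93, adjusted p = 0.473 by edgeR). Without replicate 3 of female statin the change in females was 0.54 (adjusted p = 0.648 by edgeR), and without replicate 1 it was 1.22 (adjusted p = 0.0417 by edgeR). It also passed with DESeq2 (adjusted p = 0.0406) and without a filter on low counts (adjusted p = 0.0378 by edgeR).

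Prlr lies on chromosome 15 of GRCm38, from 10177238 to 10349180 on the plus strand, and shares 203 exon bases with Gm21973, which is listed at 0 in every liver. In the list of 11 genes of the prolactin and growth hormone receptor pathway, 10 were tested and 0 were called with statin in either sex. In females 4 of the 10 had an unadjusted p-value under 0.05, against 10.5% of all genes, and in males 0 of the 10, against 1.96%. The smallest p-value in females belonged to Stat5a, a transcription factor that these receptors activate, with a log2 fold change of 0.67 (SE 0.15, adjusted p = 0.110 by edgeR). In males the log2 value of Stat5a was -0.20 (adjusted p = 1 by edgeR), and its difference between the sexes was 0.87 (adjusted p = 0.277 by edgeR). The list's median log2 fold change was 0.06 in females and -0.08 in males, against 0.01 and 0 for all genes.

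Esr1, the main estrogen receptor of liver, was at 27.6, 30.6 and 42.4 CPM in female chow and at 30.9, 57.6 and 61 CPM in female statin. Replicate 1 of statin lay among the chow livers and the other two above them. The log2 fold change was 0.57 (SE 0.35, interval -0.20 to 1.34, adjusted p = 0.672 by edgeR). In males the levels were 11, 17.6 and 14.9 CPM on chow and 12.4, 11.3 and 28.7 CPM on statin, so that replicate 3 alone stood above the chow livers. The fit gave 0.27 in males (interval -0.50 to 1.05, adjusted p = 1 by edgeR), and -0.29 without that liver. Esr1 lies on chromosome 10, from 4611593 to 5005614 on the plus strand, and overlaps no other annotated gene.

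Nr3c1, the glucocorticoid receptor, was at 81.2, 83.3 and 90.7 CPM in female chow and at 82.5, 119 and 107 CPM in female statin. In male chow it was at 104, 108 and 111 CPM and in male statin at 115, 84.4 and 72.3 CPM. The statin livers spread more widely than the chow livers in both sexes, with an SD of 18.1% and 24.5% of the mean on statin against 5.86% and 2.92% on chow. In the order of replicates 1, 2 and 3 the axis scores given above were -0.467, 0.486 and -0.019 in female statin and 0.488, -0.143 and -0.345 in male statin, and the order of Nr3c1 followed them. In male chow, with scores of -0.198, -0.009 and 0.206, it did so too, but in female chow, with scores of 0.225, -0.186 and -0.039, the liver with the highest score had the lowest Nr3c1. The part of the axis in the result was not tested. The log2 fold changes were 0.27 in females (interval -0.10 to 0.65, adjusted p = 0.679 by edgeR) and -0.25 in males (interval -0.63 to 0.13, adjusted p = 1 by edgeR). With a correction for exon length, added after seeing the data, they were 0.26 and -0.24. Nr3c1 is on chromosome 18, from 39410545 to 39519421 on the minus strand.

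Of the 9 steroid receptors and membrane steroid-binding proteins listed, 6 were tested and 0 were called with statin in either sex. Esr2, Pgr and Gper1 had group means of at most 0.0449 CPM and were not tested. The mineralocorticoid receptor Nr3c2 had the smallest p-value of the list in females, at 14.6, 12.7 and 11.5 CPM on chow and 16.9, 25.8 and 20.8 CPM on statin. Its groups did not overlap, and the log2 fold change was 0.71 (SE 0.18, adjusted p = 0.145 by edgeR). In males the log2 value of Nr3c2 was -0.30 (SE 0.17), and its difference between the sexes was 1.01 (adjusted p = 0.289 by edgeR). Of the 10 chaperones and cochaperones that hold steroid receptors ready for hormone, 0 were called with statin in either sex. In females 5 of the 10 had an unadjusted p-value under 0.05, against 10.5% of all genes, with a median log2 fold change of -0.22 against 0.01 for all genes. In males 1 of the 10 did, against 1.96%, with a median of 0.02 against 0. Stip1, which links HSP70 to HSP90, had the smallest p-value, with a log2 fold change of -0.51 in females (SE 0.12, adjusted p = 0.126 by edgeR) and -0.28 in males (adjusted p = 1 by edgeR).

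Hsd11b1 reduces inactive 11-keto glucocorticoids to the active hormone in the endoplasmic reticulum, and per length it was the highest of the 8 genes in each group. It was at 556, 672 and 776 CPM in female chow and at 750, 626 and 861 CPM in female statin. In males it was at 711, 608 and 653 CPM on chow and at 618, 717 and 732 CPM on statin. All 4 groups overlapped, and no fitted difference between them exceeded 0.16 on the log2 scale. The 95% intervals ran from -0.19 to 0.51 for statin in females and from -0.29 to 0.42 in males, which bounds a change at these livers' spread without showing that there was none. Hsd11b1 (chromosome 1, 193221634 to 193264075, minus strand) shares no exon bases with the genes that overlap it. Of the 5 genes listed for glucocorticoid activation and transport 4 were tested and 0 called with statin. Serpina6, the corticosteroid-binding globulin of plasma, had the smallest p-value in females, a log2 fold change of 0.48 (adjusted p = 0.703 by edgeR).

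The 15 genes listed as glucocorticoid receptor targets were all tested, and 0 were called with statin in either sex. Their median log2 fold change was -0.23 in females and 0.44 in males, against 0.01 and 0 for all genes, and the values in males ran from -0.91 (Lcn2) to 2.43 (Zbtb16), named here as the ends of the range. An unadjusted p-value under 0.05 was found for 2 of 15 in females, against 10.5% of all genes, for 3 of 15 in males, against 1.96%, and for 4 of 15 in the difference between the sexes, against 8.01%. Tat, which breaks down tyrosine, had the smallest p-value in females, with 1820, 867 and 1480 CPM on chow and 629, 760 and 821 CPM on statin. These groups did not overlap, and the log2 fold change was -0.91 (SE 0.28, adjusted p = 0.241 by edgeR). In males Tat was at 629, 735 and 1200 CPM on chow and 1330, 1140 and 1160 CPM on statin, where the groups overlapped. Its difference between the sexes was -1.41 (SE 0.39, adjusted p = 0.318 by edgeR). In males Errfi1, a feedback inhibitor of the EGF receptor, had the smallest p-value, with a log2 fold change of 0.85 (SE 0.30, adjusted p = 1 by edgeR).

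Hsd17b6 converts androgen metabolites such as androstanediol back to ketone forms and belongs to the retinol dehydrogenase branch of the family. It was at 65.9, 99 and 150 CPM in female chow and at 226, 178 and 231 CPM in female statin. No other member had separate chow and statin livers in females, a separation found for 12% of all genes, and in males 0 of 8 members did so against 7.95%. The log2 fold change in females was 1.01 (SE 0.45, interval 0.03 to 1.99, adjusted p = 0.460 by edgeR). In males the levels were 73.3, 46.7 and 111 CPM on chow and 160, 66.9 and 42.7 CPM on statin, the widest spread of any member, with an SD of 68.8% of the mean on statin. The male log2 fold change was 0.22 (interval -0.75 to 1.19, adjusted p = 1 by edgeR), and without replicate 1 of male statin it was -0.49. The responses of the sexes differed by 0.79 (interval -0.58 to 2.16, adjusted p = 0.890 by edgeR). Hsd17b6 (chromosome 10, 127990936 to 128007611, minus strand) shares 12.1% of its 50-base stretches with Rdh1, which was at 0.476 CPM or below in every liver.

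Hsd17b2 oxidises estradiol to estrone and testosterone to androstenedione, and so lowers active sex steroids. It was at 96.2, 117 and 101 CPM in female chow and at 113, 67.6 and 70.9 CPM in female statin, with replicate 1 of statin among the chow livers and the other two below them. In males the levels were 130, 104 and 91.5 CPM on chow and 88, 127 and 142 CPM on statin, which overlapped. The log2 fold changes were -0.32 in females (interval -0.81 to 0.17, adjusted p = 0.729 by edgeR) and 0.13 in males (interval -0.36 to 0.62, adjusted p = 1 by edgeR). Hsd17b2 had the lowest weight of the 8 genes on the within-group axis, at the percentile 6.99, and Hsd17b6 the highest, at 86.7. The gene is on chromosome 8, from 117701904 to 117759027 on the plus strand. Of the 12 17-beta-hydroxysteroid dehydrogenases listed, 8 were tested and 0 were called with statin. Hsd17b11, a lipid droplet protein, had the smallest p-value in females, with a log2 fold change of 0.49 (SE 0.20, adjusted p = 0.412 by edgeR).

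Srd5a1 reduces testosterone to dihydrotestosterone and starts the breakdown of other steroids. It was at 51.4, 36.5 and 40.8 CPM in female chow and at 43, 29.8 and 17.1 CPM in female statin, where replicate 3, the highest for Prlr, was the lowest of all livers. The log2 fold change in females was -0.52 (SE 0.26, interval -1.09 to 0.06, adjusted p = 0.544 by edgeR), and without that liver -0.22. In males the levels were 69.2, 75.3 and 74.3 CPM on chow and 86.2, 61.2 and 66 CPM on statin, with a log2 fold change of -0.04 (interval -0.61 to 0.54, adjusted p = 1 by edgeR). Of the 12 steroid and aldo-keto reductases listed, 10 were tested and 0 were called with statin in either sex, and Srd5a1 had the smallest p-value of them in females. Srd5a1 (chromosome 13, 69573449 to 69611442, minus strand) shares 476 exon bases with Gm17108 on the same strand, which was at 0.367 CPM or below.

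Hsd3b5 is a male-type member of the 3-beta-hydroxysteroid dehydrogenase family of liver, which acts as a ketosteroid reductase. It was at 0.915, 1.27 and 1.07 CPM in female chow and at 1.22, 0.99 and 0.774 CPM in female statin, from between 39 and 68 reads in a liver. In males it was at 184, 150 and 130 CPM on chow and at 205, 156 and 136 CPM on statin. The statin and chow livers overlapped in each sex, with log2 fold changes of -0.12 in females (interval -0.64 to 0.40, adjusted p = 0.962 by edgeR) and 0.10 in males (interval -0.31 to 0.51, adjusted p = 1 by edgeR). The gene is on chromosome 3, from 98618634 to 98630252 on the minus strand. It shares 21.2% of its 50-base stretches with other genes, mostly with Gm10681, which is listed at 0 in every liver, so reads of these copies may not be told apart.

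**Figure D2:**
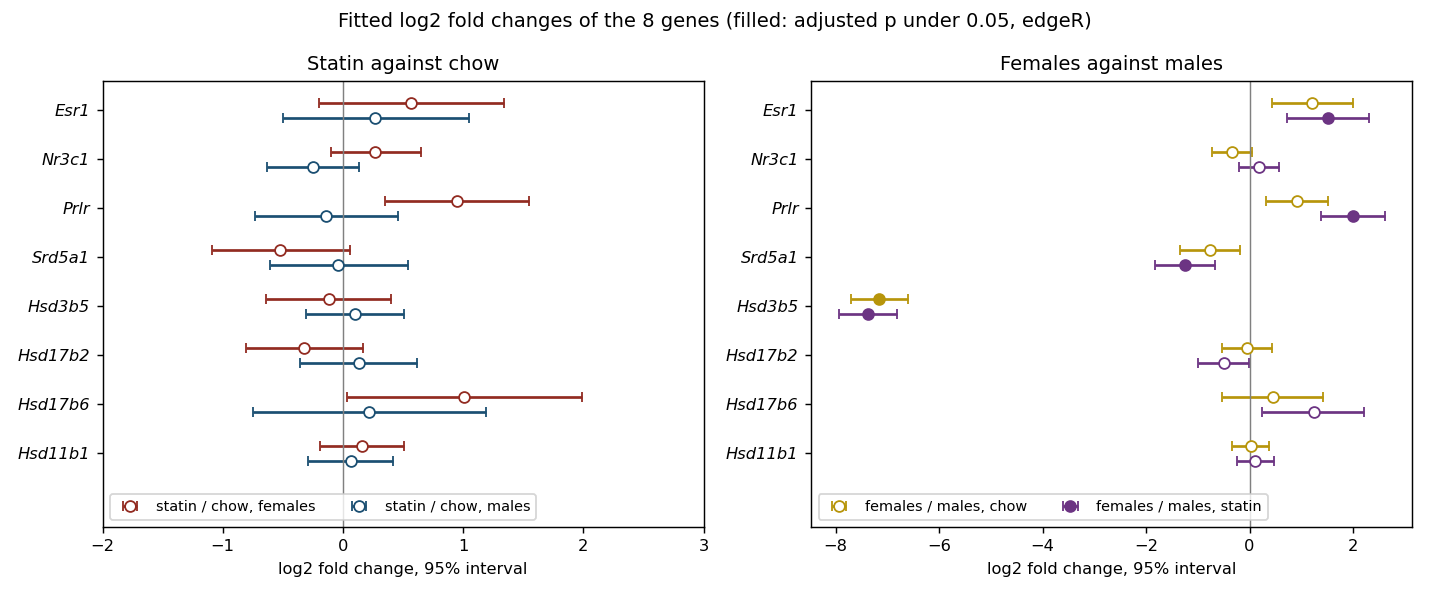
Fitted log2 fold changes of the 8 genes with 95% intervals, for statin against chow in each sex on the left and for females against males on each diet on the right; filled points have an adjusted p-value under 0.05. No point on the left is filled, and on the right Hsd3b5 is filled on both diets while Esr1, Prlr and Srd5a1 are filled on statin alone.

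The sexes were compared on each diet to give the size of the sex difference beside that of the drug. On chow 1 of the 8 genes passed the adjusted threshold, Hsd3b5, against 10.4% of all genes, and on statin 4 of 8 did, against 6.28% of all genes. Esr1 and Prlr were higher in females on statin (4.38% of all genes), and Srd5a1 and Hsd3b5 lower in females (1.9% of all genes). Before adjustment 4 of 8 members on chow and 6 of 8 on statin had a p-value under 0.05, against 24.9% and 19.4% of all genes. The livers of the sexes did not overlap for 5 members on chow, against 37.7% of all genes, and for 5 on statin, against 19.6%. These comparisons share their livers with those of the diets, and the change of each sex difference with diet is the difference in response given above, which passed for 0 members. DESeq2 called 4 of the 8 genes on chow, against 16.3% of all genes with that tool.

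Hsd3b5 differed most, at a log2 fold change of -7.16 on chow (SE 0.26, adjusted p = 4.42e-09 by edgeR) and -7.37 on statin (adjusted p = 4.08e-09 by edgeR), that is 143-fold and 166-fold higher in males. It passed the authors' filter of 1 CPM in 6 livers with 9 livers over 1 CPM, all 6 of the males and 3 of the females, whereas the other 7 members were above 1 CPM in all 12 livers. Of the 7 genes of its family 4 were tested, and 3 were lower in females on chow, where 10.4% of all genes were called in either direction, namely Hsd3b5, Hsd3b2 (log2 fold change -2.01, adjusted p = 1.94e-04 by edgeR) and Hsd3b3 (-1.02, adjusted p = 0.0221 by edgeR). On statin, where 1.9% of all genes were lower, 2 were so, Hsd3b5 and Hsd3b2 (-1.39, adjusted p = 0.00300 by edgeR). Hsd3b2 shares 25.1% of its 50-base stretches with other genes, and with Hsd3b3 more than with any other, so reads of these stretches may not be told apart.

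For Prlr the sex difference was 0.92 on chow (SE 0.28, adjusted p = 0.0549 by edgeR) and 2.00 on statin (SE 0.29, adjusted p = 0.00120 by edgeR), with no overlap of the sexes on either diet. For Esr1 it was 1.21 on chow (SE 0.36, adjusted p = 0.0517 by edgeR) and 1.51 on statin (adjusted p = 0.0276 by edgeR), again without overlap. For Srd5a1 it was -0.77 on chow (SE 0.26, adjusted p = 0.0886 by edgeR) and -1.25 on statin (adjusted p = 0.0163 by edgeR), and all 6 male livers lay above all 6 female livers. On statin the call of Esr1 was lost without replicate 2 or 3 of female statin or replicate 1 or 2 of male statin (adjusted p = 0.0726, 0.0806, 0.0908 and 0.114 by edgeR), and that of Srd5a1 without replicate 1 of male statin (adjusted p = 0.0538 by edgeR). On chow DESeq2 gave adjusted p-values of 0.00748 for Esr1, 0.0101 for Prlr and 0.0406 for Srd5a1.

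The other 4 members did not pass between the sexes on either diet in the fit of all livers with edgeR. Hsd17b6 was higher in every female statin liver than in every male statin liver, with a log2 fold change of 1.24 (SE 0.45, adjusted p = 0.144 by edgeR), and it passed with DESeq2 (1.22, adjusted p = 0.0408, where that tool called 10.7% of all genes), without a filter on low counts (1.20, adjusted p = 0.0196 by edgeR) and without replicate 1 of male statin (1.95, adjusted p = 0.0187 by edgeR). Nr3c1 was lower in every female chow liver than in every male chow liver, with a log2 fold change of -0.34 (adjusted p = 0.254 by edgeR). Hsd17b2 had values of -0.05 on chow and -0.50 on statin (adjusted p = 0.919 and 0.242 by edgeR) and Hsd11b1 of 0.02 and 0.11 (adjusted p = 0.953 and 0.792 by edgeR). The intervals for Hsd11b1 ran from -0.33 to 0.38 on chow and from -0.24 to 0.47 on statin.

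Markers of other liver cells differed between the sexes as well. The 5 Kupffer cell markers summed to between 271 and 332 CPM in female chow and between 144 and 202 CPM in male chow, and to between 255 and 402 and between 135 and 169 CPM on statin. On chow 3 of the 5 were higher in females and on statin 4, where 10.4% and 6.28% of all genes were called in either direction. The 5 stellate cell markers summed to between 274 and 332 CPM in female chow and between 178 and 193 in male chow, with 2 of 5 higher in females, and to between 213 and 304 and between 171 and 228 CPM on statin, with 0 of 5. The part of these cells in the sex differences of the receptors was not tested. The 5 sinusoidal endothelial markers summed to between 225 and 245 CPM in female chow and between 147 and 207 in male chow, where Clec4g was higher in females (log2 fold change 0.67, adjusted p = 0.00567 by edgeR), and to between 188 and 275 and between 155 and 208 CPM on statin, with 0 of 5 called. The 5 lymphocyte markers, of which Ptprc alone was tested, summed to between 14.6 and 18.5 CPM in female chow and between 21.2 and 27.4 in female statin, without overlap, and to between 10.6 and 16.4 and between 8.87 and 14.1 CPM in male chow and male statin. Ptprc had a fitted log2 value of 0.48 with statin in females (adjusted p = 0.432 by edgeR) and was higher in females than in males on statin (1.06, adjusted p = 0.00961 by edgeR). The 5 hepatocyte markers had fitted log2 values between -0.12 (Fgb) and 0.46 (Apoa1) with statin in females and between -0.62 (Apoa1) and 0.01 (Ttr) in males, with medians of 0.30 and -0.13. Between the sexes on chow their values lay between -0.81 (Apoa1, adjusted p = 0.0136 by edgeR) and 0.51 (Fgb, adjusted p = 0.158 by edgeR), with a median of 0.05 and 1 of 5 called. The 5 stellate markers had fitted log2 values between -0.53 (Col1a1) and -0.08 (Reln) with statin in females, with a median of -0.37, 1 of 5 at an unadjusted p-value under 0.05 and 0 called, and a median of -0.02 in males. Clec4g, Ptprc, Apoa1, Fgb, Ttr, Col1a1 and Reln were named after their values were seen. With statin 0 markers of these 5 cell types were called in either sex, and their part in the values of the members was not tested.

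Per length, levels can be set beside each other across the genes. In female chow the order was Hsd11b1 at 157 ± 25.8 CPM per kb of exon (SD, n = 3), Hsd17b6 at 66.7 ± 27.0, Hsd17b2 at 54.4 ± 5.61, Srd5a1 at 14.7 ± 2.63, Prlr at 11.1 ± 2.26, Nr3c1 at 11.1 ± 0.649, Esr1 at 2.45 ± 0.573 and Hsd3b5 at 0.699 ± 0.113 CPM per kb. The livers of the neighbours Hsd17b6 and Hsd17b2 overlapped, as did those of Srd5a1 and Prlr and those of Prlr and Nr3c1. In male chow Hsd11b1 was again first, at 155 ± 12.1 CPM per kb, and Hsd3b5 second, at 99.9 ± 17.6 CPM per kb, followed by Hsd17b2 and Hsd17b6 at 56.4 ± 10.1 and 48.9 ± 20.6, which overlapped. Srd5a1 was at 25.1 ± 1.13, Nr3c1 at 14 ± 0.410, Prlr at 5.89 ± 0.612 and Esr1 at 1.06 ± 0.243 CPM per kb in male chow. In female statin Hsd11b1 at 175 ± 27.6 and Hsd17b6 at 134 ± 18.4 CPM per kb led, then Hsd17b2 at 43.6 ± 13.1, Prlr at 21.5 ± 10.1, Nr3c1 at 13.4 ± 2.43, Srd5a1 at 10.3 ± 4.45, Esr1 at 3.65 ± 1.21 and Hsd3b5 at 0.642 ± 0.143. In male statin Hsd11b1 at 162 ± 14.6 and Hsd3b5 at 107 ± 22.7 CPM per kb led, then Hsd17b2 at 61.7 ± 14.4, Hsd17b6 at 57 ± 39.3, Srd5a1 at 24.4 ± 4.56, Nr3c1 at 11.8 ± 2.89, Prlr at 5.36 ± 0.662 and Esr1 at 1.28 ± 0.713. The livers of Prlr, Nr3c1 and Srd5a1 overlapped in female statin. In male statin those of Hsd17b6 overlapped the livers of Hsd3b5, Hsd17b2 and Srd5a1, so these places are not separated. The length is that of all annotated exons, 15.3 kb for Prlr and 13.7 kb for Esr1, so genes with long rare exons are placed too low.

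**Figure D3:**
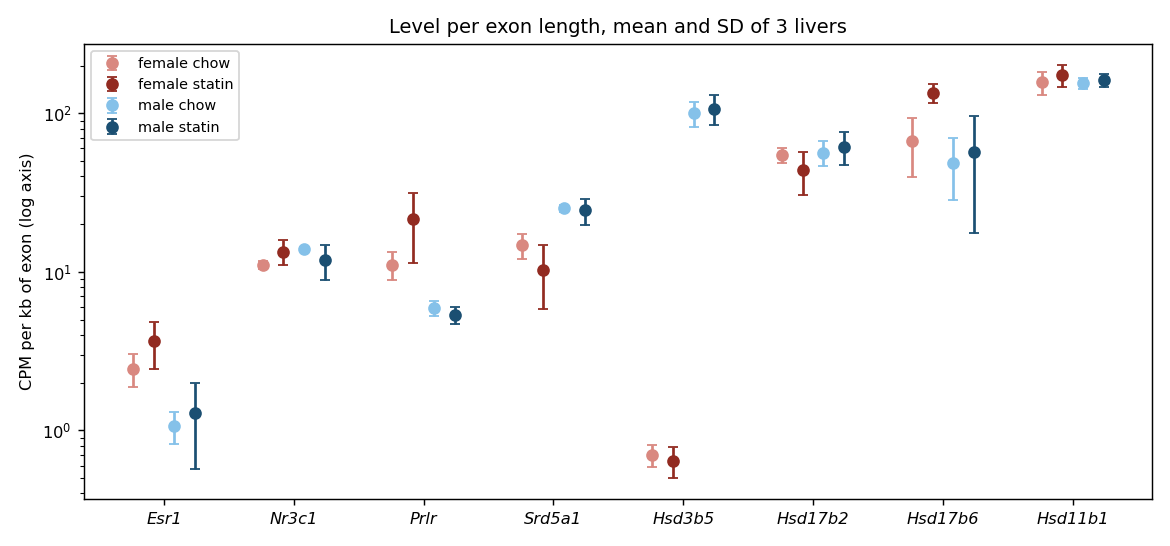
Mean level per kb of exon with the SD of 3 livers for the 8 genes in the 4 groups, on a log axis. Hsd11b1 is the highest in each group, at 155 to 175 CPM per kb, and Hsd3b5 moves from the lowest place in females to the second in males on chow.

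Genes with a pattern over the 12 livers most like that of a member were taken as those with the smallest root-mean-square difference of centred log2(CPM + 1) levels, for the 5 members whose group means spanned more than 1 on that scale. Hsd3b5 was nearest to Cyp4a12b, Cyp4a12a and Elovl3, male-type genes of fatty acid oxidation and elongation, at 0.23, 0.27 and 0.35 on the log2 scale. Prlr was nearest to the anion transporter Slco1a4 (0.29), the amino acid transporter Slc1a4 (0.31) and Abhd2 (0.36). Esr1 was nearest to Abcc4, Setbp1 and Slco1a4 at 0.36, 0.36 and 0.37, so that Slco1a4 was near both receptors. Srd5a1 was nearest to the complement gene C9 (0.30), Bdnf (0.31) and Trib3 (0.32). Hsd17b6 had the most distant neighbours, Cyp2c37, Osbpl5 and Serpina6, at 0.52, 0.54 and 0.54.

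The lists also held genes called between the sexes. Of 16 steroid hydroxylases and conjugating enzymes 11 were tested and 0 were called with statin in either sex, whereas on chow 2 were higher and 5 lower in females, where 10.4% of all genes were called in either direction. Cyp2d9, which hydroxylates testosterone, had a log2 difference of -4.98 (adjusted p = 9.73e-08 by edgeR), Cyp7b1, which hydroxylates oxysterols and androgens, of -2.81 (adjusted p = 9.83e-05 by edgeR), and the sulfotransferase Sult2a8 of -3.33 (adjusted p = 2.03e-04 by edgeR). Cyp17a1, an enzyme of androgen synthesis, was higher in females by 2.45 on the log2 scale (adjusted p = 0.00112 by edgeR). Sult2a8 had the smallest p-value with statin in females, at 81.6, 116 and 107 CPM on chow and 227, 118 and 412 CPM on statin. Its groups did not overlap, and the fitted log2 value was 1.31 (SE 0.36, adjusted p = 0.195 by edgeR). Among the receptors, Nr3c2 was lower in females on chow (-1.10, adjusted p = 0.00221 by edgeR), with a value of -0.08 on statin (adjusted p = 0.872 by edgeR). In the pathway of the prolactin receptor the growth hormone receptor Ghr was lower in females on chow (-0.58, adjusted p = 0.0142 by edgeR), as was Igfals, which binds IGF1 in plasma (-0.99, adjusted p = 0.0180 by edgeR), and the signalling inhibitor Socs3 was higher (1.80, adjusted p = 0.0266 by edgeR). So 1 of the 10 tested genes was higher and 2 lower, against 10.4% of all genes called in either direction. On statin the values of Ghr, Igfals and Socs3 were -0.33, 0.28 and 0.12 (adjusted p = 0.175, 0.593 and 0.937 by edgeR), and Stat5a was higher in females (0.56, adjusted p = 0.0391 by edgeR). With Prlr, 2 of the 10 were higher on statin and 0 lower, against 6.28% of all genes called in either direction. Against the same 10.4% of all genes, 3 of the 15 glucocorticoid receptor targets were higher in females on chow, the siderophore-binding Lcn2 (3.87, adjusted p = 3.52e-05 by edgeR), the serine dehydratase Sds (1.09, adjusted p = 0.0348 by edgeR) and the cell cycle inhibitor Cdkn1a (1.81, adjusted p = 0.0404 by edgeR), and 1 of the 8 tested 17-beta-hydroxysteroid dehydrogenases, Hsd17b11, was lower (-0.73, adjusted p = 0.0415 by edgeR). On statin, where 6.28% of all genes were called in either direction, 1 of the 15 targets was higher and 1 lower. Lcn2 was again higher (4.39, adjusted p = 1.38e-05 by edgeR) and Errfi1 was lower (-1.12, adjusted p = 0.0492 by edgeR). Sds, Cdkn1a and Hsd17b11 were at 0.16, 1.45 and 0.02 on statin (adjusted p = 0.845, 0.134 and 0.974 by edgeR). Of 10 tested partners and targets of the estrogen receptor 0 were called with statin. On chow 3 of the 10 were lower in females and 0 higher, against 10.4% of all genes called in either direction. These were Igf1, Cited2 and Foxa1 (log2 fold changes -0.74, -0.56 and -0.54, adjusted p = 0.00462, 0.0324 and 0.0386 by edgeR). On statin 1 of the 10 was lower, against 6.28% of all genes called in either direction. This was again Foxa1 (-0.66, adjusted p = 0.0221 by edgeR), and Igf1 and Cited2 were at -0.16 and -0.11 (adjusted p = 0.599 and 0.789 by edgeR).

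**Figure D4:**
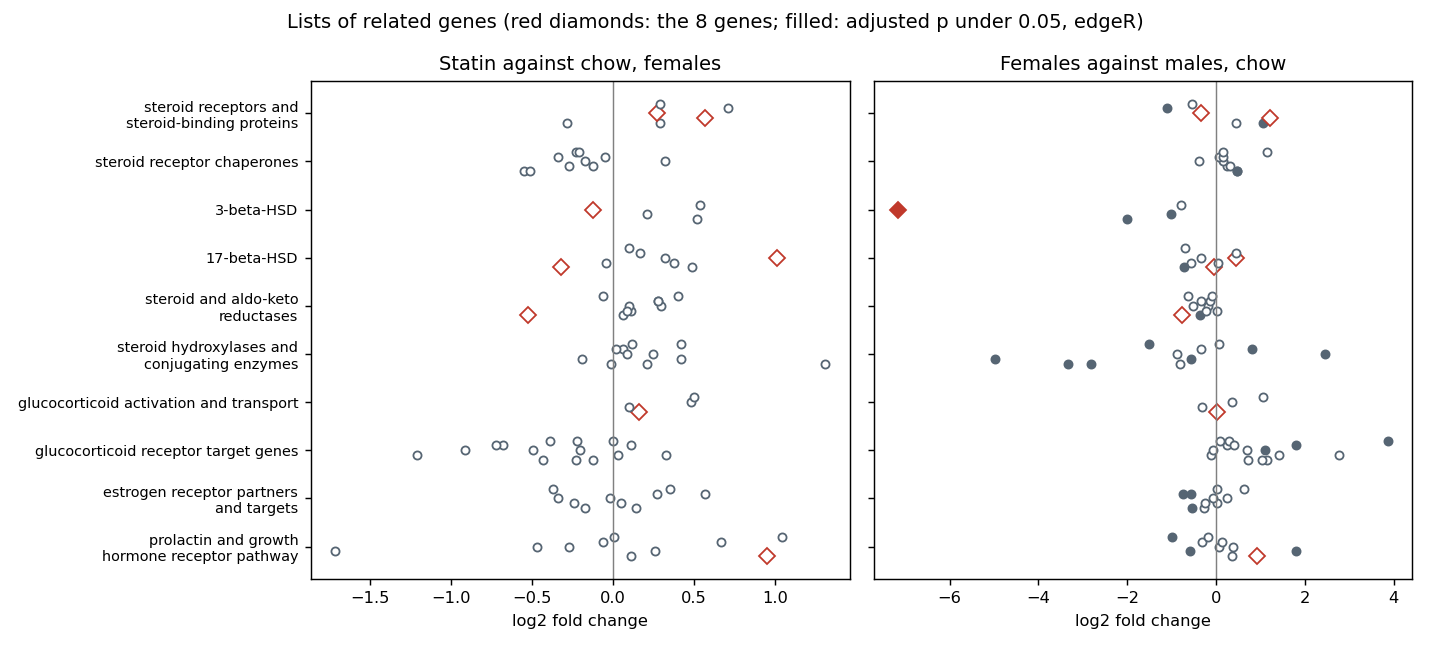
Log2 fold changes of the tested genes of the lists of receptors, enzymes, pathways and targets, for statin against chow in females on the left and females against males on chow on the right, each point a gene; the 8 members are red diamonds and filled points have an adjusted p-value under 0.05. No point is filled on the left, where values lie between -1.71 and 1.31, and on the right Hsd3b5 at -7.16 is the furthest from 0.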

How the data were processed

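Poly(A) RNA of 12 livers was sequenced in pairs of 50 bases. Per the labels, the authors aligned reads to GRCm38 with STAR 2.4.1a, counted them with HTSeq and used edgeR 3.28.1; the strand setting is not given in the sources used here. The authors deposited CPM values (scaled to the total count of a liver) for all genes, and raw counts for 11968 of them, each over 1 CPM in 6 or more livers; 100% of the CPM values gave whole reads within 0.05 reads, and 0 differed from the count table. Counts were fitted with edgeR 4.0.16 (TMM, quasi-likelihood, 4 groups in a single fit, no covariate, common dispersion 0.038), two-sided, with Benjamini-Hochberg adjustment over all genes; SE was taken as the size of the log2 fold change divided by the root of F. DESeq2 1.42.0 and limma 3.58.1 served as alternatives (R 4.3.3, Python 3.11.15, matplotlib 3.10.9). Positions, exon lengths and overlaps are from GENCODE vM21. The scripts were tested on simulated data for statin in females, where DESeq2 made more false calls than edgeR and also found more of the true changes. The simulated livers varied independently and lacked the shared axis of the real livers. The test therefore does not show how often either tool errs in these data.

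The members and lists were chosen with earlier results of these data known. Named genes are the 8 members and, per list and comparison, up to 3 rising and 3 falling called genes with the smallest p-values, or the gene with the smallest p-value where none was called; not all of these are printed, and 1 withheld item is not reported here. At these depths 3 counts amount to between 0.0497 and 0.0651 CPM, a floor for counting error only. Replicate numbers come from the titles, and same-numbered livers are different mice. No liver was a copy of another (lowest chi-square per degree of freedom 44.5). The symbols Hsd17b8 and Sts were not matched.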

Additional observations from a re-analysis of the deposited data

How the results depend on the processing

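With the replicate number as a block (replicate block), 5 genes in place of 12 were called with statin in females and 2 members in place of 1 between the sexes on chow, Esr1 being added; the block changed no other call of a member. Same-numbered livers of different groups deviated with a mean correlation of -0.108 over 18 pairs, against 0.0576 for other pairs. The 18 values ran from -0.746 to 0.676, so the mean hides large values of both signs. Whether same-numbered livers shared a batch was not tested. DESeq2 called 270 genes in females, 4 in males, 130 for the difference in response, 1946 between the sexes on chow and 1284 on statin, with 1 member in females and 4 between the sexes on chow. Without a filter on low counts there were 148 genes in females and 103 for the difference in response, with 1 member in females and 4 between the sexes on chow, and the sex difference of Hsd11b1 on chow fell to 0.00, just below zero. The 6 female livers alone gave 0 genes. Between the sexes on chow, 2 members were called with library size alone, with limma at either pseudocount (1 or 0.1) and with a stricter filter, and 3 with the correction for exon length, which was added after seeing the data. The main fit called 10.4% of all genes there. The shares of all genes under these settings, the block and the fit without a filter are not given. Whether the members gained more calls than other genes is therefore not shown. The stricter filter (5 CPM in 6 livers) left 500 genes between the sexes on statin. Library size alone turned Hsd11b1 on chow to -0.01, shifted the median of all genes between the sexes on statin to -0.104, and gave 2 chaperones on chow, 2 reductases on statin and 1 prolactin pathway gene on statin. The cause of these moves was not tested.

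Leaving out each liver in turn gave between 0 and 75 genes and 0 to 1 members in females, 0 to 14 genes for the difference in response, 635 to 1586 genes and 1 to 4 members between the sexes on chow, and 378 to 743 genes on statin. The log2 fold change crossed 0 for Hsd3b5 in females (-0.28 to 0.04) and, in males, for Esr1 (-0.29 to 0.51), Srd5a1 (-0.20 to 0.06), Hsd3b5 (-0.08 to 0.24), Hsd17b2 (-0.01 to 0.31) and Hsd17b6 (-0.49 to 0.58). It also did so for Hsd11b1 in the difference in response (-0.03 to 0.21), on chow (-0.11 to 0.13) and on statin (0.00 to 0.21) between the sexes, and for Hsd17b2 on chow (-0.16 to 0.10).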
